A study of Bos taurus with 14 samples.

Results

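5 genes of milk fat globule RNA varied together across cows. They are ENSBTAG00000066082, ENSBTAG00000060382, ENSBTAG00000057590, ENSBTAG00000056429 and ENSBTAG00000052369, with abundance ranks of 10, 16, 23, 24 and 25 (rank 1 has the most counts summed over all libraries). They were chosen by their levels: starting from the gene of rank 10, a gene among the 50 most abundant was kept where its log2 CPM reached a Pearson correlation of 0.95 with it over 14 cows. CPM is the count on a scale common to all libraries, corrected with TMM factors, and 0.5 was added before taking log2. The rule kept 5 of 36075 gene identifiers. Since the levels chose the genes, the shared pattern over cows is described below without a test.

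The samples were milk of 14 purebred Holstein cows of a single commercial farm, with common rations and management; their ages and stages of lactation are not given in the labels. 7 cows carried the A1A1 and 7 the A2A2 genotype of β-casein, and each cow gave 1 library. The series asks whether the globule transcriptome differs between the genotypes. Cows are named below by genotype and sample number. In 4 libraries (A1A1 10, A1A1 15, A2A2 5 and A2A2 13) the description has _2 at its end. No label says what this suffix stands for, so it was handled as if it could mark a batch.

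As background, milk fat globules bud from the surface of the secretory epithelial cell of the udder, wrapped in its membrane, and some carry a crescent of its cytoplasm with RNA. Milk also holds shed epithelial cells and leucocytes, whose number differs between cows and stages of lactation. The A1 and A2 forms of β-casein are common alleles of the CSN2 gene. Neither the files nor RefSeq's gene table for ARS-UCD2.0 gives a name for these identifiers, and 0 of 36075 matched a symbol. What the 5 genes encode is therefore not stated here, their sequences are not shown, and the tissue label could not be checked against marker genes. A lower level in such bulk samples can mean fewer cells or globules of a kind or less RNA in each, which cannot be told apart.

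Total counts per library lay between 16116849 and 22994197, and 12545 to 17044 genes had at least 1 count. TMM factors ran from 0.636 in A1A1 3 to 1.21 in A2A2 4. In A1A1 3 the factor raises every CPM value above that by library totals. When the 5 genes were left out of its calculation, that factor was 0.647.

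The gene of rank 10, ENSBTAG00000066082, held the most counts of the 5 in every library. It is 1472 bases long, a length worked out from the deposited counts and FPKM. In the A1A1 cows its CPM was 1195 in A1A1 10, 1767 in A1A1 15, 5189 in A1A1 8, 9201 in A1A1 7, 15790 in A1A1 9, 35405 in A1A1 2 and 155901 in A1A1 3. In the A2A2 cows it was 2504 in A2A2 17, 3415 in A2A2 1, 3902 in A2A2 13, 4904 in A2A2 5, 14132 in A2A2 4, 22585 in A2A2 11 and 54984 in A2A2 6. Each genotype thus held cows at both ends, and the genotypes overlapped over most of the range. The highest level was 130-fold the lowest. By library totals, in place of TMM, the range was 75.6-fold.

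ENSBTAG00000060382, of 4133 bases, had 1014 CPM in the lowest A1A1 cow, a median of 4380 and 78674 in the highest. In A2A2 its lowest, median and highest values were 1067, 2637 and 24225 CPM. ENSBTAG00000057590, of 716 bases, ran from 642 through a median of 2192 to 53569 CPM in A1A1, and from 658 through 1417 to 16767 CPM in A2A2. As with the gene of rank 10, A1A1 3 and A2A2 6 were the highest cow of their genotype for both genes. ENSBTAG00000056429, of 1040 bases, ran from 849 through 2128 to 47026 CPM in A1A1 and from 418 through 1238 to 13200.1 CPM in A2A2. ENSBTAG00000052369, of 4701 bases, ran from 509 through 2290.3 to 37483 CPM in A1A1 and from 1045 through 1419 to 12556 CPM in A2A2. The fold range over the 14 cows was 77.6, 83.4, 113 and 73.7 for these 4 genes in the order given. By library totals it was 45.1, 49.8, 68.9 and 42.7.

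**Figure D1:**
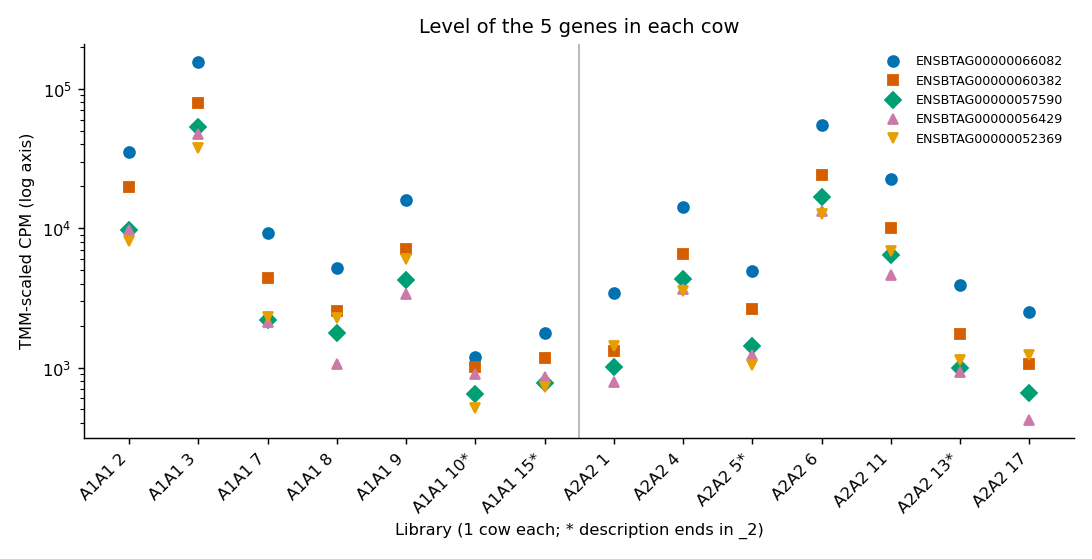
TMM-scaled CPM (log axis) of the 5 genes in each of 14 libraries, A1A1 on the left and A2A2 on the right, 1 point per gene and cow; an asterisk marks a description ending in _2. A1A1 3 is highest for all 5 genes, A2A2 6 second, and all 4 libraries with an asterisk lie in the lower part of the range.

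The cows fell in nearly the same order for each gene. A1A1 3, A2A2 6, A1A1 2 and A2A2 11 were the first 4 in that order for all 5 genes, and A1A1 7 had place 7. The same 7 cows made up the upper part of the ranking for all 5 genes, namely these 5 with A1A1 9 and A2A2 4. The other 7 cows, A1A1 8, 10 and 15 and A2A2 1, 5, 13 and 17, made up the lower part, where their order differed between genes. With TMM scaling ENSBTAG00000056429 was lowest in A2A2 17 and the other 4 genes were lowest in A1A1 10. By library totals A2A2 17 was lowest for ENSBTAG00000060382 as well, with 1109 CPM against 1112 in A1A1 10. The same held for ENSBTAG00000057590, with 684 against 704 CPM.

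Together the 5 genes took 0.466% of all counts in A1A1 10 (exact binomial 95% interval 0.464 to 0.469%) and 23.7% in A1A1 3 (23.7 to 23.7%), a 50.8-fold range. Such intervals cover counting error only, and reads without molecular identifiers are not independent molecules. The share was above 5% in 4 of 14 libraries and above 1% in 9. It was 12.6% in A2A2 6, 7.821% in A1A1 2 and 5.51% in A2A2 11. Without A1A1 3 the range was 27.1-fold, and without A1A1 3 and A2A2 6 it was 16.8-fold. Even the lowest count of any of the 5 genes in a library was 7597 (ENSBTAG00000056429 in A2A2 17, exact Poisson 95% interval 7427 to 7770).

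Among the 50 most abundant genes the 5 stood clear of the rest on the measure that chose them. Their correlations with the gene of rank 10 were 0.990 for ENSBTAG00000060382, 0.988 for ENSBTAG00000057590, 0.984 for ENSBTAG00000052369 and 0.962 for ENSBTAG00000056429, just inside the threshold. The nearest gene outside it was ENSBTAG00000013924, of rank 43, at 0.624, and the 45 others had a median of 0.275 and a lowest value of -0.26. Over the 10 pairs of the 5 genes, r lay between 0.940 and 0.995 and Spearman's rho between 0.864 and 0.991. All points share the same 14 libraries and scaling factors.

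**Figure D2:**
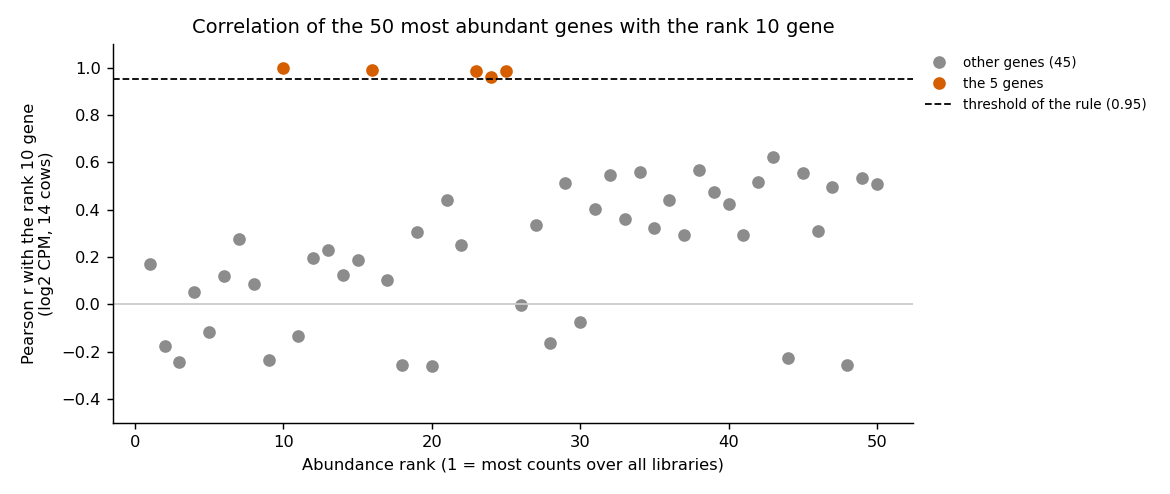
Pearson correlation of log2 CPM with the gene of rank 10 over 14 cows (vertical axis) for the 50 most abundant genes by abundance rank (horizontal axis), with the threshold of 0.95 as a dashed line. The 5 genes lie at 0.962 or above and the 45 others at 0.624 or below.

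The correlations that chose the genes were also computed in parts of the 14 libraries, as a description. Within A1A1 the correlation with the gene of rank 10 was 0.964 to 0.994 for the other 4 genes, and within A2A2 it was 0.969 to 0.999 (7 cows each). In the 10 libraries without the suffix it was 0.986 to 0.998. Leaving out 1 library gave at least 0.976 for ENSBTAG00000060382, ENSBTAG00000057590 and ENSBTAG00000052369. For ENSBTAG00000056429 the lowest value was 0.943, without A1A1 3, which is under the threshold. The rule applied without A1A1 3 kept 4 genes, and it kept 5 without any other single library.

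The spread of the 5 genes over cows was also the widest of the 50 most abundant genes. The SD of log2 CPM over 14 cows was 2.01 for ENSBTAG00000066082, 1.93 for both ENSBTAG00000060382 and ENSBTAG00000057590, 1.91 for ENSBTAG00000056429 and 1.76 for ENSBTAG00000052369. The 45 other genes had an SD of 0.179 to 1.35, with a median of 0.889. Among the 5881 tested genes with a mean CPM of at least 10 the median SD was 0.403, and the 5 genes took places 39 to 122 in order of spread. Many less abundant genes therefore varied more over these cows.

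Outside the 50 most abundant genes, 2 genes with a mean CPM of at least 10 had a like pattern at far lower levels. Of the 5881 genes with a mean CPM of at least 10, 7 reached a correlation of 0.9 with ENSBTAG00000066082, itself included: the 5 genes, ENSBTAG00000068554 (r = 0.954) and ENSBTAG00000048608 (r = 0.936). ENSBTAG00000068554 is 300 bases long, has rank 2348 and ran from 1.59 CPM in A2A2 17 through a median of 13.9 to 317 CPM in A1A1 3. ENSBTAG00000048608 is 153 bases long, has rank 379 and ran from 5.72 CPM in A2A2 17 through 57.4 to 1166 CPM in A1A1 3. Both were highest in A1A1 3, as the 5 genes were, while A1A1 2 took place 2 and A2A2 6 place 3, the reverse of their places for the 5. Counts were lower here, from 29 to 3939 for the first and from 104 to 14482 for the second, so their low values carry more counting error. Without A1A1 3 and A2A2 6 their correlations were 0.926 and 0.893. Neither gene passed for genotype, with log2 fold changes of -1.63 and -1.35 (adjusted p of 0.856 for both in edgeR).

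Without a limit on the level, 8 of the 12320 tested genes reached 0.9. The one added was ENSBTAG00000065013 (r = 0.903), which had 0 to 104 counts per library and a mean of 1.41 CPM and is named after its value was seen. Among genes with a mean CPM of at least 10, the next highest correlation after ENSBTAG00000048608 was 0.841. 35 genes lay between 0.7 and 0.9, and the median over the 5881 genes was -0.03. At the other end 37 genes had a correlation of -0.7 or less, and the lowest were ENSBTAG00000009732 at -0.83 and ENSBTAG00000061790 at -0.82. The former varied little, from 16.6 to 34.1 CPM over the 14 cows, against a 130-fold range for ENSBTAG00000066082. The latter varied more, from 3.30 to 24.2 CPM. These are descriptions over 14 libraries, and genes are not independent replicates.

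**Figure D3:**
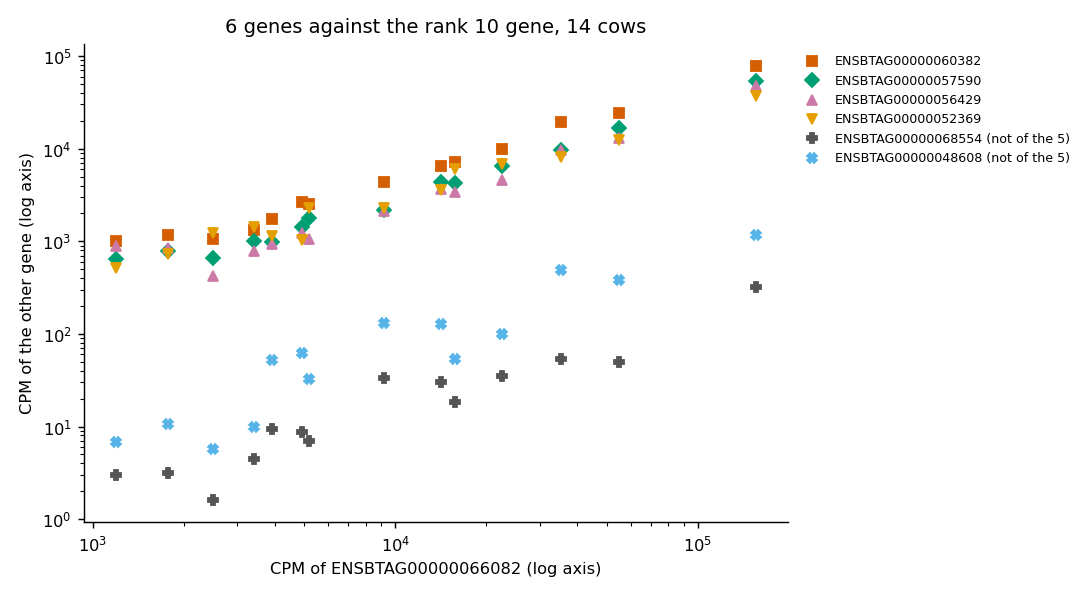
CPM of 6 genes (vertical, log axis) against CPM of ENSBTAG00000066082 (horizontal, log axis), 1 point per gene and cow. The 4 other genes of the set form a band from 418 to 78674 CPM, and ENSBTAG00000068554 and ENSBTAG00000048608, which are not of the 5, rise along it at 1.59 to 1166 CPM.

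Per length, the 5 genes kept almost the same order of levels in every cow. The deposited FPKM, which divides by gene length, had a median over cows of 4892 for ENSBTAG00000066082, 2770 for ENSBTAG00000057590, 1617 for ENSBTAG00000056429, 848 for ENSBTAG00000060382 and 486 for ENSBTAG00000052369. Neighbours in that order differed in log2 FPKM by 0.65 ± 0.32, 0.76 ± 0.31, 1.08 ± 0.31 and 0.86 ± 0.48 (SD over 14 cows). The first of these differences held in 13 of 14 cows, with A1A1 10 as the exception. The next 2 held in 14 of 14, and the last in 13 of 14, with A2A2 17 as the exception. By counts alone the order is another, because the 4133-base and 4701-base genes are several times as long as the rest.

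The proportions among the 5 genes were less even than the correlations show. ENSBTAG00000060382 had 38.6% to 84.9% of the counts of the gene of rank 10 in the same library, with a median of 46.8%. ENSBTAG00000057590 had 23.8% to 53.7% (median 29.1%) and ENSBTAG00000056429 had 16.7% to 74.7% (median 23.98%). For these 3 genes A1A1 10 was the highest cow and A1A1 15 the second, both low in all 5 genes and both with the suffix. ENSBTAG00000052369 followed another pattern, from 21.3% in A2A2 5 to 48.8% in A2A2 17 (median 29.6%). Log2 CPM was also regressed on that of the gene of rank 10. The slopes were 0.95, 0.95, 0.91 and 0.86 for ENSBTAG00000060382, ENSBTAG00000057590, ENSBTAG00000056429 and ENSBTAG00000052369. A slope of 1 would mean no linear trend of the log2 proportion with the level of that gene. Scatter in its level can also bring a slope below 1.

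**Figure D4:**
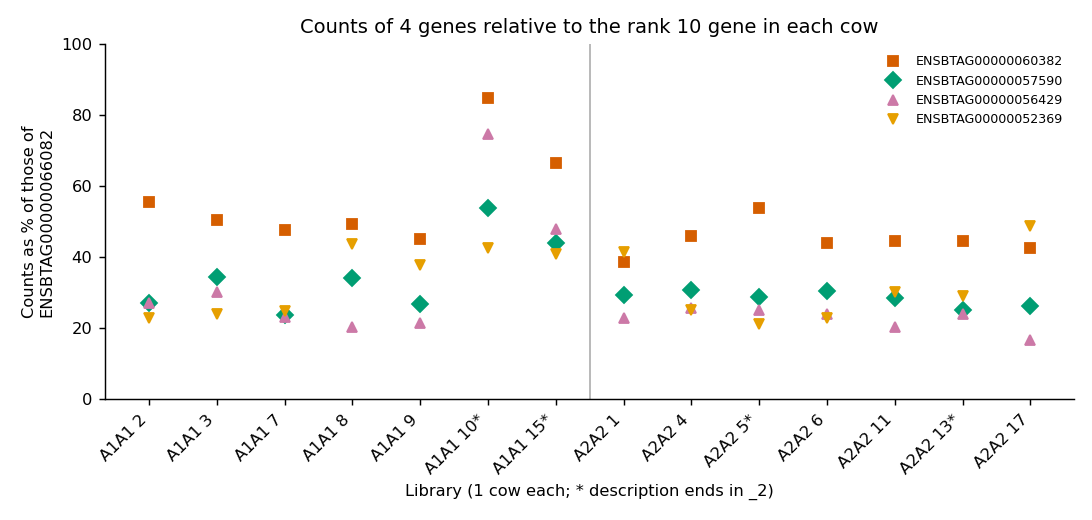
Counts of 4 genes as a percentage of the counts of ENSBTAG00000066082 in the same library (vertical axis) for each of 14 libraries; an asterisk marks a description ending in _2. A1A1 10 reaches 84.9%, 74.7% and 53.7% for 3 of the genes, and A1A1 15 is second for the same 3.

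These proportions do not depend on scaling factors, and 8 differences in their log2 value were compared, 4 between genotypes and 4 between libraries with and without the suffix, by two-sided exact permutation tests chosen after the values were seen. None had an adjusted p under 0.05 (Benjamini-Hochberg over 8). The rule chose the genes by how closely they followed the gene of rank 10 over these libraries. It thereby limited how far the proportions could vary. The p values below therefore describe the chosen genes only, and no conclusion on genotype or suffix is drawn from them. The proportion of ENSBTAG00000060382 was lower in A2A2 by 0.32 on the log2 scale, at -0.84 ± 0.32 (SD) for the 7 A1A1 cows and -1.16 ± 0.14 for the 7 A2A2 cows (exact permutation p = 0.0192, adjusted p = 0.0559). In the 10 libraries without the suffix the difference was -0.20 (exact permutation p = 0.0159, not adjusted). Leaving out 1 library gave -0.37 to -0.22. The unadjusted exact permutation p was then 0.00583 to 0.0507, highest without A2A2 1. With the suffix that proportion was higher by 0.39 (exact permutation p = 0.0170, adjusted p = 0.0559), and without A1A1 10 by 0.23 (exact permutation p = 0.0804). ENSBTAG00000056429 was higher with the suffix by 0.74, at -2.13 ± 0.24 in 10 libraries without it and -1.38 ± 0.79 in 4 with it (exact permutation p = 0.0210, adjusted p = 0.0559), and by 0.42 without A1A1 10 (exact permutation p = 0.0839). Within A1A1 that difference was 1.31 and within A2A2 0.18, with 2 suffix libraries in each. The 5 other comparisons had an adjusted p of 0.146 to 0.810 (exact permutation tests).

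No genotype difference was detected for any of the 5 genes. All 5 had a lower fitted level in A2A2, with log2 fold changes of -1.08 for ENSBTAG00000066082, -1.27 for ENSBTAG00000060382, -1.20 for ENSBTAG00000057590, -1.39 for ENSBTAG00000056429 and -1.05 for ENSBTAG00000052369. Each had an adjusted p of 0.856 over 12320 genes in the quasi-likelihood test of edgeR. At an adjusted p of 0.05 the test called 0 of the 5 genes and 0% of all genes, and at an unadjusted p under 0.05 it called 0 of the 5, against 411 genes or 3.34% in all. The median fold change of the 5 was -1.20, and that of all genes tested was -0.0042. The genes were chosen for varying together, so their 5 directions are not separate observations.

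The fitted fold changes rest on the highest cows. Without A1A1 3 they turned to between 0.15 and 0.46 for the 5 genes, and without A2A2 6 they lay between -2.26 and -1.69. The difference in mean log2 CPM, which gives the highest cows less weight, was -0.23 with a standard error of 1.12 for ENSBTAG00000066082. It was -0.71 with a standard error of 1.04 for ENSBTAG00000056429, the largest of the 5. As a share of all counts the 5 genes held 5.59 ± 8.37% (SD) in the 7 A1A1 cows and 3.65 ± 4.38% in the 7 A2A2 cows, with medians of 1.98% and 1.14%. The spread within each genotype was larger than the difference between the means.

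**Figure D5:**
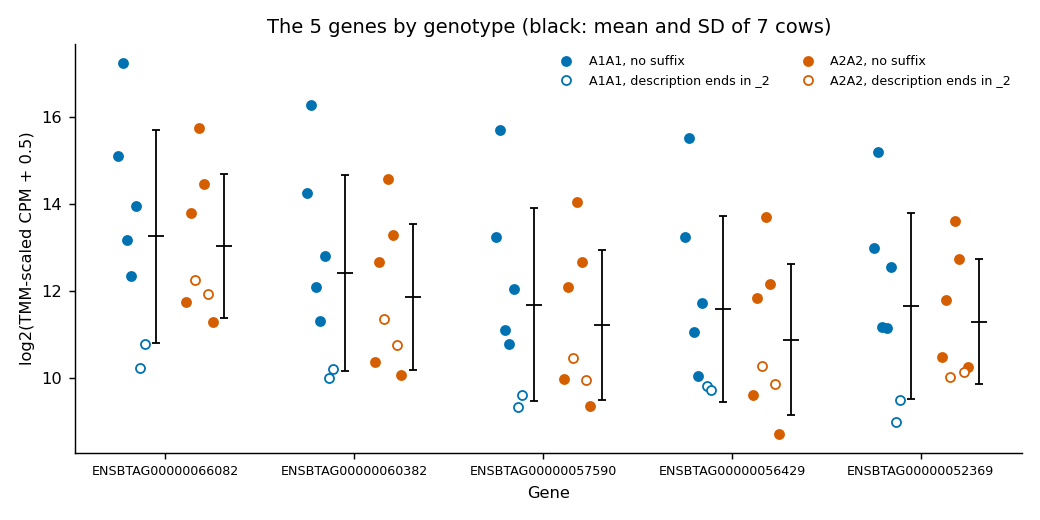
Log2(TMM-scaled CPM + 0.5) of the 5 genes in A1A1 (blue) and A2A2 (orange) cows, 1 point per cow, open where the description ends in _2; black marks give the mean and SD of 7 cows. For ENSBTAG00000066082 the means are 13.26 in A1A1 and 13.03 in A2A2 with SDs of 2.45 and 1.66, and the 2 genotypes overlap for every gene.

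The 4 libraries with the suffix were all among the 7 cows with low levels. ENSBTAG00000066082 had 1195, 1767, 3902 and 4904 CPM in them, against 2504 to 155901 CPM, with a median of 14961, in the 10 others. ENSBTAG00000052369 had 509 to 1134 CPM with the suffix and 1222 to 37483 CPM without it, the only one of the 5 genes whose values did not overlap. Over all genes tested, the values did not overlap for 2.79%, including 1.24% that were lower with the suffix. For the other 4 genes A2A2 1 and A2A2 17, which have no suffix, lay within or below the range of the libraries with it, and A1A1 8 lay within it for ENSBTAG00000060382 and ENSBTAG00000056429. As a share of counts the 5 genes held 0.777 ± 0.338% with the suffix (SD, n = 4) and 6.16 ± 7.19% without it (SD, n = 10).

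In edgeR's model with genotype and suffix, the log2 fold change with the suffix was -3.24 for ENSBTAG00000066082 (adjusted p = 0.140), -2.95 for ENSBTAG00000060382 (adjusted p = 0.166), -3.15 for ENSBTAG00000057590 (adjusted p = 0.148), -2.84 for ENSBTAG00000056429 (adjusted p = 0.188) and -3.06 for ENSBTAG00000052369 (adjusted p = 0.0939). None of the 5 passed 0.05 over 12320 genes, where 202 genes or 1.64% did, 61 of them lower with the suffix (0.495%). That count rests on single libraries. It was 0 without any one of A1A1 3, A1A1 8, A1A1 15, A2A2 1, A2A2 4 or A2A2 13, 1 without A1A1 2 or A1A1 10, and 29, 41 and 104 without A2A2 17, A2A2 11 and A2A2 6. It was 491 without A2A2 5 and 561 without A1A1 7. With library totals 90 genes passed, 0 of them lower. All 5 had an unadjusted p under 0.05 and a lower level, against 9.43% of all genes (20.1% in either direction). Because the genes were chosen for varying together over these libraries, the 5 results are not separate observations. The median fold change was -3.06 for the 5 and -0.06 for all genes. DESeq2, an alternative, gave an adjusted p of 0.00133 to 0.0364 for 4 of the 5 and 0.149 for ENSBTAG00000066082, where it called 1091 of 11830 genes with an adjusted p (9.22%), 527 of them lower (4.45%). Without A1A1 3 and A2A2 6 the fold changes lay between -2.28 and -1.68, with adjusted p of 0.0846 to 0.232 in edgeR.

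The level of ENSBTAG00000066082 showed no detectable relation to 3 other measures of the libraries. Over 14 cows its log2 CPM had r = 0.14 and rho = 0.081 with the total count, r = -0.34 and rho = -0.35 with the number of genes detected, and r = 0.17 and rho = 0.13 with the log2 CPM of the gene of rank 1. The permutation p was 0.241 to 0.638 for r and 0.224 to 0.777 for rho, and the adjusted p over the 3 relations was at least 0.638 in each case. Without A1A1 3 and A2A2 6, the 2 cows farthest from the median, r was 0.22, -0.11 and 0.22 for the same 3 measures. In the 10 libraries without the suffix it was 0.27, -0.23 and 0.37.

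The lengths did not single out a gene name either. Of 37063 genes in RefSeq, 5, 2, 7, 7 and 0 span exactly the length of the genes of ranks 10, 16, 23, 24 and 25. None of these is among the 16 genes of biotype rRNA. The longest of that biotype has 1571 bases, so no match was possible for the genes of 4133 and 4701 bases, whatever they encode. The lack of a match therefore says nothing about these genes. Whether any of the 5 genes is an rRNA was not tested. A span in the genome equals a transcript's length only for genes without introns. Whether the 5 genes have near-identical copies that share reads with them is not known here, so the split of counts among them is uncertain.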

How the data were processed

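Total RNA from frozen milk was made into paired-end mRNA libraries, per the labels' protocols. 2 tables deposited by the authors hold the raw count and the FPKM of 36075 identifiers in each library. Among tools, STAR, edgeR 4.0.16, cutadapt 4.0 and FastQC 0.11.9 appear, per the submitters' processing notes. For the genome build, annotation and counting tool: not given in the sources used here. Gene length is the whole number of bases implied by counts over FPKM (within 0.05 for all 21104 genes with a count).

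The test on counts used edgeR 4.0.16 under R 4.3.3 (TMM, filterByExpr, robust quasi-likelihood F test, two-sided, Benjamini-Hochberg over 12320 genes, threshold 0.05), for A2A2 minus A1A1 and for the suffix with genotype as covariate. The script was checked on simulated counts. Correlations with library measures used 100000 permutations (scipy 1.17.1). Alternatives were DESeq2 1.42.0, limma 3.58.1, other scalings and filters, and each library left out. The 5 genes and the gene lists were chosen with earlier results of these data known. Of the rule for named genes, the parts on gene lists, promoters and cell type markers were not run, since they need symbols. It names the genes kept, the next 5 of the 50, and the 15 highest and 5 lowest correlations among genes of at least 10 CPM. Of the last 3 sets only 5 identifiers are printed. Each sample number occurs once, and the cows were treated as unpaired.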

Additional observations from a re-analysis of the deposited data

Results flagged for a closer look

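Dixon's test looked for 1 library far from the other 6 of its genotype in 24 sets of 7 values, and found one in 14 of them. Chance gives about 1 in 20 for normally distributed values. The sets overlap, since the genes vary together, and CPM and shares are skewed: on the log2 scale 0 of the 16 sets of CPM or shares had such a library.

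A1A1 3 stood above the other A1A1 cows, with 155901 CPM of ENSBTAG00000066082 against at most 35405, 78674 CPM of ENSBTAG00000060382 against at most 19620.3, 53569 CPM of ENSBTAG00000057590 against at most 9643 and 47026 CPM of ENSBTAG00000056429 against at most 9620.4. It also had 37483 CPM of ENSBTAG00000052369 against at most 8124, and a share of the 5 genes of 23.7% against at most 7.821%. The 2 genes of like pattern stood out as well, with 317 CPM of ENSBTAG00000068554 against at most 53.2 and 1166 CPM of ENSBTAG00000048608 against at most 487.

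A2A2 6 stood above the other A2A2 cows, with 54984 CPM of ENSBTAG00000066082 against at most 22585, 24225 CPM of ENSBTAG00000060382 against at most 10041, 16767 CPM of ENSBTAG00000057590 against at most 6468 and 13200.1 CPM of ENSBTAG00000056429 against at most 4595. Its share of the 5 genes was 12.6% against at most 5.51%, and its CPM of ENSBTAG00000048608 was 380.2 against at most 129.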

How the results depend on the processing

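The rule kept 5 genes under every other scaling, pseudocount and measure tried and over the 10 libraries with no suffix, and 4 without A1A1 3, with or without A2A2 6 (4 to 5 leaving out 1 library). The fold range of the share was 16.8 without A1A1 3 and A2A2 6, and 27.1 to 50.8 leaving out 1 library. The difference in share of -1.95 points was -3.44 to 1.07 leaving out 1 library, highest without A1A1 3. For genotype, edgeR called 0 genes in all alternatives run with it, DESeq2 called 12 and limma on log2(FPKM + 1) called 1. At an unadjusted p under 0.05, edgeR called 411 genes in the main test. Its alternatives called from 224 (without A2A2 17) to 1881 (with no filter). No member passed in 26 alternatives, with fold changes of -2.26 to 0.46. The direction turned by voom for ENSBTAG00000066082 (0.24) and without A1A1 3 for all 5. Leaving out 1 library gave -1.90 to 0.38 for ENSBTAG00000066082, -2.07 to 0.15 for ENSBTAG00000060382, -2.07 to 0.46 for ENSBTAG00000057590, -2.26 to 0.21 for ENSBTAG00000056429 and -1.69 to 0.23 for ENSBTAG00000052369. The cause was not tested.

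The number of genes called for the suffix, 202, was 90 with library totals, 77 without genotype, 1091 by DESeq2 and 0 without A1A1 3 and A2A2 6 (2492 at an unadjusted p under 0.05). Leaving out 1 library gave 0 to 561, highest without A1A1 7, and it was within 1.5 times only without A1A1 9. The 5 genes were lower with the suffix in all 20 alternatives, with fold changes of -3.67 to -1.68, and 4 passed, all by DESeq2. As they were chosen for varying together, their directions are not separate observations. For the proportions, the genotype difference was 0.0057 for ENSBTAG00000057590 and 0.13 for ENSBTAG00000052369 in the 10 libraries without the suffix. The suffix difference of ENSBTAG00000052369 was -0.040 without A1A1 3 and A2A2 6, -0.074 to 0.26 leaving out 1 library and -0.38 within A2A2, where that of ENSBTAG00000057590 was -0.11. Leaving out the libraries of highest level together, TMM without the 5 genes, library totals for the suffix, every alternative for the proportions and those for the number of genes with r of at least 0.9 were chosen after seeing the data. That number, 7, was 6 without A1A1 3 and A2A2 6, 8 at a mean CPM of at least 1 and 7 to 8 leaving out 1 library, highest without A1A1 7. The relation to gene lists and the share outside mitochondrial genes need gene names and were not run. No paired analysis was possible because the sample numbers of the genotypes do not overlap.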
